A study of Mus musculus with 6 samples.

Results

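G2/M dark zone B-cells of the mouse germinal center (GC) are B-cells that hold the transcripts of late G2 and mitosis. They were picked out of single cell RNA-seq libraries by a fixed rule, which found 6151 cells among 22939 barcodes. A barcode had to have at least 500 detected genes and under 10% mitochondrial unique molecular identifiers (UMIs, each standing for 1 captured transcript). It also needed at least 3 UMIs of *Cd79a*, *Cd79b* and *Ms4a1* together, fewer than 2 UMIs of *Ly6d*, no UMI of *Cd3d*, *Cd3e* or *Cd3g*, under 8% immunoglobulin UMIs and no *Myc* UMI. Cells that met these conditions are called B-rule cells, and those with UMIs of at least 4 of 8 genes (*Top2a*, *Mki67*, *Cdc20*, *Ccnb1*, *Ccnb2*, *Cenpa*, *Cenpf* and *Ube2c*) were the G2/M cells. Of 21568 barcodes that passed the filters on genes and mitochondrial UMIs, 12446 were B-rule cells, and the G2/M cells were 49.4% of these and 28.5% of all that passed. The members were thus chosen by measured levels of the genes of the rule, and a contrast of G2/M cells with other B-rule cells is given below as a description without a test.

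The libraries came from sorted spleen cells of mice immunized with sheep red blood cells. In 3 libraries, labelled Cgamma1-Cre WT Control, the mice had intact *Smc3* (*Smc3* wt/wt). The other 3, labelled Cgamma1-Cre Smc3 +/-, were heterozygous for *Smc3* (*Smc3* wt/-). Mice of both groups carried *Cγ1*-Cre, a recombinase placed in the *Ighg1* gene, which is switched on when B-cells are activated for the GC, so other cells of the spleen are meant to keep both copies of *Smc3*. The construct targets exon 4 of *Smc3*. The methods give as many *Smc3* wt/- mice as there are *Smc3* wt/- libraries and more *Smc3* wt/wt mice than libraries analysed here, but not which mouse is in which library, nor their age. Therefore p-values measure the spread between libraries. *Smc3* wt/wt replicates 1, 2 and 3 held 281, 1753 and 1477 G2/M cells, and *Smc3* wt/- replicates 1, 2 and 3 held 891, 35 and 1714.

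In the GC, B-cells divide and mutate their antibody genes in the dark zone and test the resulting receptors against antigen in the light zone. Dark zone B-cells, or centroblasts, are among the fastest dividing cells of an adult mouse, and a large share of them can be caught in S phase, G2 or mitosis. On entry into mitosis, cyclin B activates the kinase Cdk1, condensin compacts the chromosomes, and spindle microtubules attach to kinetochores built on centromeres. Cohesin, the ring of Smc1a, Smc3, Rad21 and a Stag subunit, folds interphase chromosomes into loops and holds sister chromatids together until separase cuts Rad21 at anaphase.

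One library stood apart from the rest. *Smc3* wt/- replicate 2 had 3679 barcodes that passed, of which 160 were B-rule cells and 35 were G2/M cells. Across genes, its G2/M cells had a Pearson correlation of 0.875 to 0.894 with those of each other library (log2 CPM, with CPM the UMIs of a gene per 1000000 UMIs), where the other 5 libraries reached 0.973 or higher among themselves. They held 3282 CPM of *Igha*, against 42.8 to 133 CPM in the other libraries, and 256 CPM of *Klf2*, against 21.8 to 31.4. *Xist*, which is transcribed from the inactive X chromosome, was found in 8 of its 35 G2/M cells and in 18 of its other 3644 cells, while 13 of the 35 held Y-linked transcripts, 1 of them with both. None of the 35 barcodes occurred in another library. Of all barcodes, 276 occurred in more than 1 library, 25 of them as G2/M cells in each. *Smc3* wt/wt replicates 1 and 2 were also Y-bearing and the other 3 libraries expressed *Xist*, so sex was unevenly spread over the groups. Results that rest on *Smc3* wt/- replicate 2 are given with and without it.

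The label was checked against markers that the rule did not read. Genes of GC B-cells were present at levels near those of the other B-rule cells. The GC genes *Mef2b* and *Rgs13* averaged 513 and 592 CPM over the 6 libraries, against 504 and 712 CPM in the other B-rule cells. Light zone genes were lower than in other B-rule cells: *Cd83*, a surface marker of light zone cells, averaged 104 CPM against 329 CPM. Of 14 light zone genes detected well enough to be tested, 10 were lower in all 6 libraries and none was higher in all, with a median log2 difference of -0.46 (log2 of CPM + 10), against -0.02 over all genes tested. The dark zone list gave a mixed answer. *Hmgb2*, *Gcsam* and *Polh*, a polymerase used in hypermutation, were higher in G2/M cells in all 6 libraries, and *Foxo1* and *Foxp1* were lower in all 6. *Cxcr4*, the chemokine receptor that places cells in the dark zone, was at 49.97, 23.5 and 21.5 CPM in *Smc3* wt/wt and at 31.5, 26.6 and 18.2 CPM in *Smc3* wt/-, and it averaged 28.6 CPM in G2/M cells and 25.98 CPM in the others. By these markers the cells of 5 libraries were GC B-cells. Light zone genes made up a smaller share of their transcripts than in the other B-rule cells. Because G2/M cells held more UMIs per cell, light zone transcripts per cell need not be fewer. In *Smc3* wt/- replicate 2 the naive and memory list summed to 495 CPM, against 86.4 to 98.3 CPM elsewhere, and the light zone list to 746 CPM, against 553 to 617 CPM. Its GC list had the lowest sum of the 6, 3383 CPM against 3755 to 4572 CPM, so the 35 cells fit the label less well. Over all libraries *Cxcr4* did not set them apart from the other B-rule cells.

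Genes of other cell types were low, apart from the plasma cell list. The T cell list summed to 133 to 171 CPM, most of it *Lck* and *Cd2*, which were also present in the other B-rule cells, and *Cd4*, *Cd8a* and *Il7r* averaged 0.0111 to 0.0262 CPM. The natural killer cell list reached 0.787 CPM at most. The myeloid list summed to 169 to 221 CPM in 5 libraries and to 405 CPM in *Smc3* wt/- replicate 2, and *Cst3* made up most of it. The plasma cell genes *Sdc1* and *Prdm1* averaged 1.07 and 2.18 CPM. The whole plasma cell list summed to 1609 to 1799 CPM, against 1348 to 1896 CPM in the other B-rule cells. Of its 8 genes tested, 4 were higher in G2/M cells in all 6 libraries and 0 were lower in all. Haemoglobin transcripts were uneven. In *Smc3* wt/wt replicate 2, 1321 of 1459 *Hba-a1* UMIs lay in 1 of the 1753 G2/M cells, and in *Smc3* wt/- replicate 3, 844 of 949 lay in 1 of 1714. Scrublet marked 292 G2/M cells, or 4.75%, as likely doublets, against 3.34% of all cells that passed. Of the other B-rule cells it marked 0.61% to 1.16% in 5 libraries and 4% in *Smc3* wt/- replicate 2, where it marked none of the 35 G2/M cells. The marked cells were kept.

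The genes of the rule share features in their promoters that the rule did not use. Promoters of genes that peak in G2/M often hold a cell cycle homology region (CHR, TTTGAA), which is bound by the DREAM and B-Myb-MuvB complexes, next to CCAAT boxes, which are bound by NF-Y. RefSeq promoters on GRCm38.p6, from 250 bases before to 50 bases after the transcription start, were searched on both strands for TTTGAA, for the variant TTCGAA and for CCAAT. The first of these was found in 7 of the 8 rule genes, in 13 of 19 promoters among the 25 genes highest in G2/M cells, and in 12.3% of the 7921 promoters found for tested genes. CCAAT was found in all 8 rule genes, each with at least 2 matches, and at least 2 matches were found in 16.6% of tested promoters. TTCGAA was found in 1 of the 8 and in 2.40% of tested promoters. Over all 27025 promoters the shares were 18.1% for TTTGAA, 1.57% for TTCGAA and 37.9% for CCAAT. Of the 8, *Ccnb1* had CCAAT matches but neither TTTGAA nor TTCGAA, and other forms of the CHR were not searched. A match is a run of letters and not a measured binding site. To show the layout, windows from 200 bases before to 30 bases after the start are printed on the strand of the gene, with matches in capitals. They lie at chr4:118437314-118437543 (minus strand), chr9:70421525-70421754 (minus), chr1:189688057-189688286 (minus), chr2:164769729-164769958 (plus) and chr13:100786457-100786686 (minus).
*Cdc20*: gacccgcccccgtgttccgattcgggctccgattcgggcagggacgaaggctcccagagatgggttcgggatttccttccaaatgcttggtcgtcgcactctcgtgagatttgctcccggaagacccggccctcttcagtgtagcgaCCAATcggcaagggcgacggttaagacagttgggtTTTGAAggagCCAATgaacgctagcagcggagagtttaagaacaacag
*Ccnb2*: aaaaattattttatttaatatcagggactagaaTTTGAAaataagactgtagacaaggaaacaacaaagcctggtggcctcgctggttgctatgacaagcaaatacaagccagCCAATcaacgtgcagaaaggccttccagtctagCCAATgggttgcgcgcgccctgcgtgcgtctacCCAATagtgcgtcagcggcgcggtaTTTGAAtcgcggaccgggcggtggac
*Cenpf*: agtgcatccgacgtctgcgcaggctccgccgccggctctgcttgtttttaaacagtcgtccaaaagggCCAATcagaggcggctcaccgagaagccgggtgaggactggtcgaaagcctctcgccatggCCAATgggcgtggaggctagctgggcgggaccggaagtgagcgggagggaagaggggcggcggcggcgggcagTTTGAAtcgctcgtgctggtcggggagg
*Ube2c*: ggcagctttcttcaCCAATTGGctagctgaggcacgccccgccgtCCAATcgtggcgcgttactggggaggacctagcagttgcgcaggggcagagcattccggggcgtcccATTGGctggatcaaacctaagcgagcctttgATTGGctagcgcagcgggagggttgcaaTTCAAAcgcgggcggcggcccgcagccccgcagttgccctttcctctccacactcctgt
*Ccnb1*: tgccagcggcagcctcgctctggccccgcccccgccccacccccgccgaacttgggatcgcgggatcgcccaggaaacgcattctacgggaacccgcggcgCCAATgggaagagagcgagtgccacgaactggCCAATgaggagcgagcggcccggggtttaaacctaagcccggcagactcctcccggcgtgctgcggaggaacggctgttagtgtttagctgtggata

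In *Cdc20* and *Ube2c* the CHR began at position -18 and -29 from the start, and in *Cenpf* and *Ccnb2* a CHR began at position 3 and 5 of the transcript. CCAAT matches lay upstream in each window, in *Ccnb1* at -99 and -67. In *Ube2c* a pair of CCAAT matches on opposite strands overlapped. Among genes of the factors themselves, *Foxm1*, a transcription factor of G2/M genes, averaged 20.8 CPM in G2/M cells and 3.54 CPM in the others, and *Mybl2*, which encodes B-Myb, averaged 52.8 and 24.2 CPM. The NF-Y gene *Nfyb* averaged 106 and 77.2 CPM. Of 18 such genes 9 were higher in all 6 libraries and 1, *E2f1*, was lower in all 6.

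G2/M cells were large in RNA content. Their median UMI count was 5522, 7152 and 8270 in *Smc3* wt/wt replicates 1 to 3 and 6158, 4769 and 7616 in *Smc3* wt/- replicates 1 to 3, which is 1.91 to 2.14 times that of the other B-rule cells of the same library. Because a cell with more UMIs is more likely to show 4 of 8 genes, depth is part of how the cells were selected. All 8 genes were found in 22.1% to 39.1% of G2/M cells. The genes of the rule reached 278 CPM (*Cenpf*) to 639 CPM (*Top2a*) on average. *Top2a* encodes the topoisomerase that untangles sister chromatids, *Cdc20* activates the anaphase promoting complex, and *Ube2c* is its ubiquitin conjugating enzyme. *Mki67*, the Ki-67 antigen, was at 327, 433 and 419 CPM in *Smc3* wt/wt and at 218, 309 and 403 CPM in *Smc3* wt/-, with the lowest values in the replicate 1 library of each group. At the limit of the rule, 902 B-rule cells had 3 of the 8 genes and 896 had 4, with median UMI counts of 4836 and 5528.

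The genes highest in G2/M cells, apart from those of the rule, were nearly all genes of mitosis. Genes were ranked by the log2 difference of G2/M cells to other B-rule cells averaged over libraries, and 169 of 30535 exceeded 1 while 41 lay under -1. Of the 25 highest, 22 were in lists of mitotic genes, and all 25 were higher in each of the 6 libraries. *Plk1*, a kinase that acts from mitotic entry to cytokinesis, led with 223 CPM against 15.2 CPM, a log2 difference of 3.23 ± 0.19 (SD, n = 6 libraries). *Aurka*, the kinase of spindle poles, was at 162 against 13.7 CPM, and its activator *Tpx2* at 226 against 23.7 CPM. *Ccna2*, the cyclin of S phase and G2, was at 265 against 32.6 CPM and *Cdk1* at 316 against 48.1 CPM. *Hmmr*, which encodes a spindle protein, differed by 3.12 ± 0.71, and by 2.87 without *Smc3* wt/- replicate 2.

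**Figure D1:**
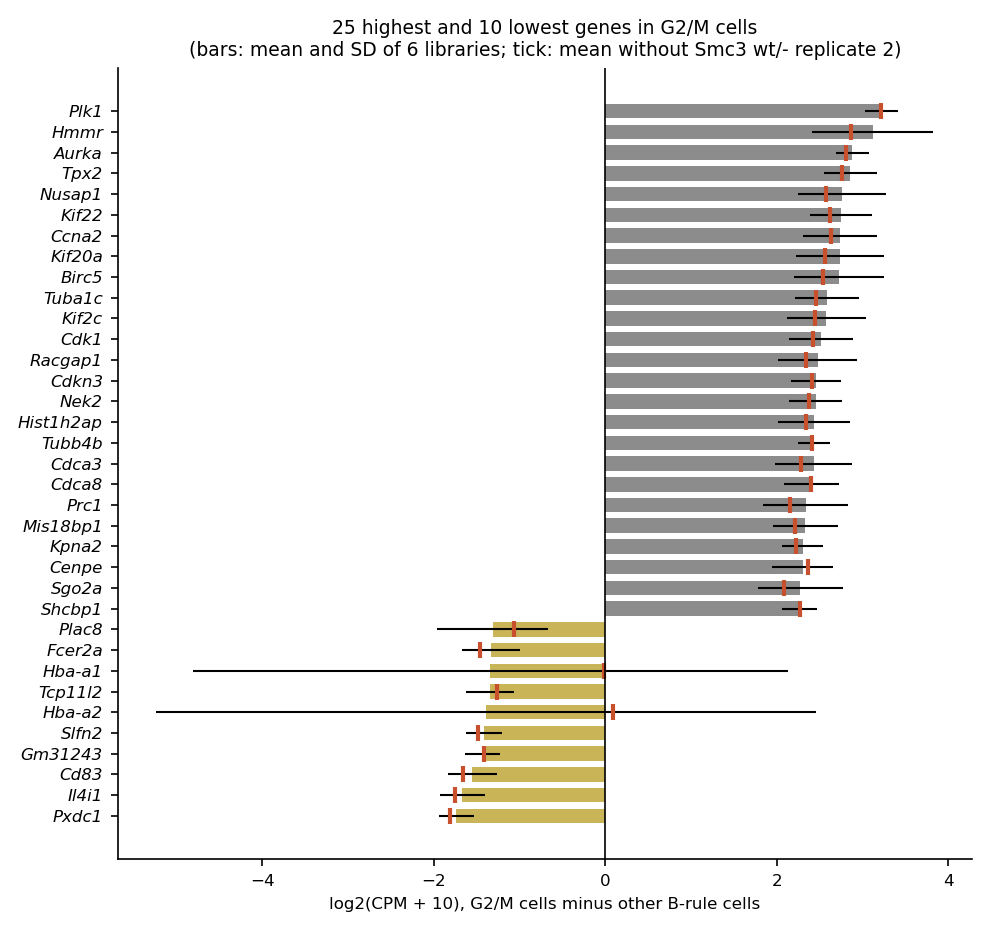
Log2 difference of log2(CPM + 10) between G2/M cells and other B-rule cells for the 25 highest and the 10 lowest genes, with bars for the mean of 6 libraries, black lines for the SD and red ticks for the mean without *Smc3* wt/- replicate 2. *Plk1* leads at 3.23, and the wide bars of *Hba-a1* and *Hba-a2* end near 0 without that library.

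By role, each mitotic list was higher as a whole. All 20 genes of the kinase and cyclin list were higher in all 6 libraries, with a median log2 difference of 2.14. *Birc5* (survivin) and *Cdca8* (borealin), subunits of the chromosomal passenger complex, were at 625 and 448 CPM in G2/M cells against 90.7 and 78.3 CPM. All 20 kinetochore and checkpoint genes were higher, with a median of 1.46. *Cenpe*, the kinetochore motor, was at 234 against 39.2 CPM, and *Bub3*, a checkpoint protein that is also present in interphase, at 591 against 259 CPM. All 26 spindle and motor genes were higher, with a median of 2.06, and they summed to 8887 to 9815 CPM per library. The tubulin genes *Tuba1b* and *Tubb5* averaged 1949 and 1866 CPM. All 8 cytokinesis genes were higher, led by *Racgap1* at 199 against 28.4 CPM. In the anaphase and mitotic exit list 7 of 10 were higher in all libraries. *Ube2s*, which extends ubiquitin chains for the anaphase promoting complex, averaged 1294 against 354 CPM, whereas the complex subunit *Anapc11* (163 and 140 CPM) and the phosphatase subunit *Ppp2r1a* (130 CPM in both) were near the level of the other cells.

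Condensin and cohesin genes differed in how far they stood above the other B-rule cells. All 8 condensin genes were higher in all 6 libraries, with a median log2 difference of 1.33. *Smc4* averaged 541 against 178 CPM and *Smc2* 284 against 82.6 CPM. Of the 5 cohesin core genes, *Rad21*, *Smc1a* and *Smc3* were higher in all 6 libraries, at 167 against 69.1 CPM, 232 against 131 CPM and 168 against 109 CPM. The subunits *Stag1* and *Stag2* were higher in 5 and 4 libraries and averaged 54.7 and 62.02 CPM. CPM counts 3′ ends and does not depend on transcript length, so levels of different genes can be set side by side only in so far as their 3′ ends are captured alike. Of 14 cohesin regulators 9 were higher in all 6 libraries and 2, *Mau2* and *Esco1*, were lower in all 6. Among the higher ones were genes of cohesion and its release: *Sgo2a*, *Sgo1* (shugoshins), *Espl1* (separase), *Cdca5* (sororin) and *Esco2* averaged 71.3, 84.9, 18.6, 88.6 and 177 CPM, against 6.52, 13.7, 2.80, 19.7 and 62.9 CPM. The loader genes behaved differently, as *Nipbl* averaged 78.3 and 76.7 CPM and *Mau2* 32.1 and 40.1 CPM. *Esco1*, an acetyltransferase for Smc3, averaged 36.2 and 45.7 CPM. *Ctcf*, which encodes the factor that anchors loops, was at 173 against 95.2 CPM.

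**Figure D2:**
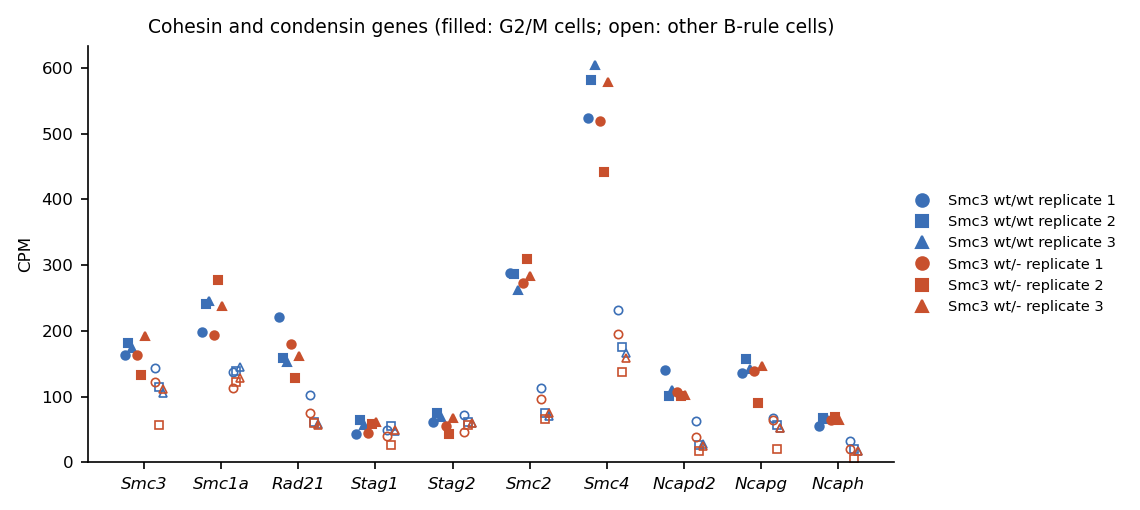
CPM of 5 cohesin core genes and 5 condensin genes, filled symbols for G2/M cells and open symbols for other B-rule cells, blue for *Smc3* wt/wt and red for *Smc3* wt/-, with a symbol shape for each replicate. *Smc3* in G2/M cells lies between 133 and 192 CPM in all 6 libraries.

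Of the 10 lowest genes, 8 were lower in all 6 libraries. *Pxdc1* was the lowest of them, with a log2 difference of -1.74, and 2 of the 10 were light zone genes, 1 was a gene of resting B-cells, 2 were haemoglobin genes and 5 were in no list. They included *Il4i1*, an amino acid oxidase of light zone cells, at 31.4 against 120 CPM, *Cd83*, and *Fcer2a*, which encodes CD23, at 31.2 against 88.0 CPM. *Hba-a1* and *Hba-a2* were among the 10 only through the other B-rule cells of *Smc3* wt/- replicate 2, which held 7841 and 6826 CPM, and their mean differences were -0.02 and 0.09 without it. All 7 genes of MHC class II presentation were lower in all 6 libraries, with a median of -0.63, and *Cd74*, the invariant chain, averaged 15247 against 24958 CPM. Because CPM is a share of all transcripts, a gene at an equal number of transcripts per cell also comes out lower in a cell with more RNA.

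S phase transcripts were present in many G2/M cells. The replication list had a median log2 difference of 0.29, and 11 of 27 genes were higher in all 6 libraries. *Rrm2*, a subunit of ribonucleotide reductase, averaged 525 CPM in G2/M cells, 238 CPM in all other B-rule cells and 517 CPM in the S phase cells among them, defined as cells with at least 4 of 8 S phase genes and fewer than 4 of the G2/M genes. *Pcna* and *Mcm6* averaged 359 and 315 CPM in G2/M cells against 568 and 641 CPM in S phase cells. At least 4 of the 8 S phase genes were found in 63.0%, 68.9% and 72.9% of G2/M cells of *Smc3* wt/wt and in 67.2%, 40.0% and 71.8% of those of *Smc3* wt/-. After each cell was thinned to 2000 UMIs the shares were 31.6%, 28.4% and 29.6% against 31.8%, 11.8% and 28.1%. The difference was not beyond the spread of libraries (exact two-sided permutation test, p = 0.5 over 6 libraries, where the smallest possible p is 0.1). Without *Smc3* wt/- replicate 2 the thinned means were 29.8% ± 1.61 (SD, n = 3) and 29.9% ± 2.64 (n = 2).

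B-rule cells were also ordered by how many of the 8 genes they held, as a description. The values are means of the 5 libraries other than *Smc3* wt/- replicate 2, each with at least 46 cells per step, and the genes of the rule were left out of the lists. The replication list went from 2695 ± 977 CPM at 0 genes (SD, n = 5) to 7290 ± 481 CPM at 4 genes and then to 4733 ± 521 CPM at 8. Spindle and motor genes went from 1273 ± 229 to 6514 ± 555 and to 11110 ± 427 CPM at the same steps. Light zone genes went the other way, from 1600 ± 290 to 687 ± 75.3 and 550 ± 61.8 CPM. Within the G2/M cells, *Plk1* went from 85.1 ± 42.5 CPM at 4 genes to 347 ± 67.0 CPM at 8, and *Aurka* from 46.3 ± 16.2 to 252 ± 47.7 CPM. Cohesin was flatter. *Smc3* was at 86.5 ± 10.7 CPM at 0 genes, 167 ± 14.5 CPM at 4 and 168 ± 12.4 CPM at 8, while *Rad21* went on from 117 ± 50.2 CPM at 4 to 204 ± 25.1 CPM at 8. The mean of the libraries' median UMI counts went from 2940 at 0 genes to 9050 at 8, so depth moved with the number of genes and its part in these values was not tested.

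**Figure D3:**
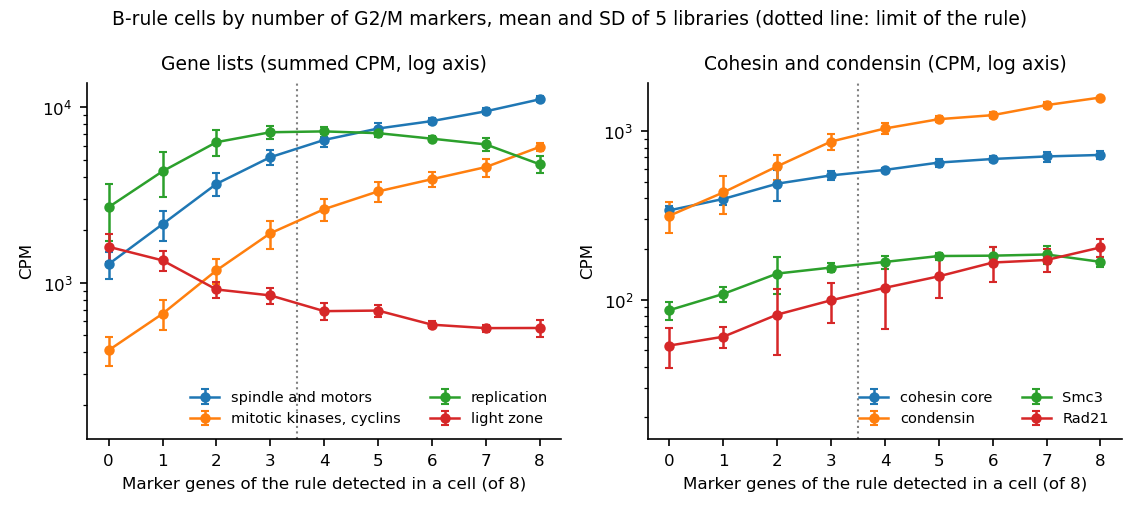
Summed CPM of gene lists (left) and CPM of cohesin and condensin (right), both on log axes, against the number of the 8 rule genes found in a cell, as mean and SD of 5 libraries. Replication genes peak near the limit of the rule at 7290 CPM, spindle genes reach 11110 CPM at 8 genes, and *Smc3* is level within the G2/M cells.

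The first comparison between genotypes asked whether heterozygous loss of *Smc3* shifts the share of GC B-cells in G2/M. G2/M cells were 46.1%, 48.0% and 51.2% of the B-rule cells in *Smc3* wt/wt replicates 1 to 3. They were 52.1%, 21.9% and 49.99% in *Smc3* wt/- replicates 1 to 3, where the exact 95% binomial interval of the lowest value was 15.7% to 29.1% (35 of 160 cells, counting error only). The *Smc3* wt/- replicates 1 and 3 thus lay within or just above the range of *Smc3* wt/wt, and replicate 2 lay below. The means were 48.4% ± 2.55 and 41.3% ± 16.9 (SD, n = 3 each, exact two-sided permutation p = 0.9, smallest possible 0.1). Without *Smc3* wt/- replicate 2 the mean of *Smc3* wt/- was 51.0% ± 1.48 and the difference turned to 2.59 percentage points (exact permutation p = 0.4, smallest possible 0.2). When the whole rule was applied after thinning every barcode to 2000 UMIs, *Smc3* wt/wt had shares of 31.2%, 29.3% and 30.8% and *Smc3* wt/- of 31.9%, 21.6% and 29.8%. S phase cells were 16.7% to 22.0% of B-rule cells in *Smc3* wt/wt and 20.8%, 8.75% and 15.7% in *Smc3* wt/-.

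**Figure D4:**
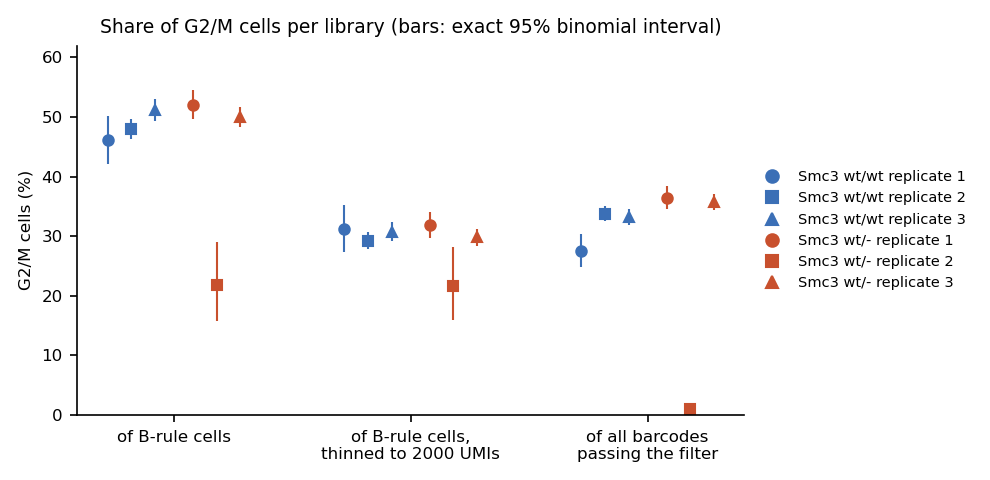
Share of G2/M cells per library among B-rule cells, among B-rule cells after thinning to 2000 UMIs and among all barcodes that passed, with exact 95% binomial intervals, blue for *Smc3* wt/wt and red for *Smc3* wt/-. *Smc3* wt/- replicate 2 is low by each measure, at 21.9%, 21.6% and 0.951%, and the other 5 libraries lie at 46.1% to 52.1% of B-rule cells.

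The second comparison asked which genes differ between the genotypes within G2/M cells. UMIs were summed per library and tested with edgeR's quasi-likelihood test over 10167 genes. *Smc3* itself was at 164, 181 and 173 CPM of all UMIs in *Smc3* wt/wt and at 163, 133 and 192 CPM in *Smc3* wt/-, so the groups overlapped. Its log2 fold change was -0.05 (SE 0.15, 95% interval -0.38 to 0.28, adjusted p = 0.9999 by edgeR). The 3′ libraries count the end of a transcript and the targeted exon lies upstream, so this value does not show whether the exon was deleted. It shows that the level of the *Smc3* 3′ end did not differ beyond the spread of libraries. Whether loss of the exon lowers that level in these cells was not tested. In lymphomas of mice with a *Bcl6* transgene, the paper reports lower *Smc3* expression in *Smc3* wt/- than in *Smc3* wt/wt. The sign of the change of *Smc3* turned when single libraries were left out, over a range of -0.23 to 0.05.

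No gene of mitosis, cohesin or condensin passed the threshold, a count near the share of calls over all genes. Of 106 such genes outside the rule 0 were called by edgeR, beside 1 of 10167 genes (0.00984%) in all, and in this fit without the block 0 had an unadjusted p under 0.05, beside 284 of all genes. The groups did not overlap for 8 of the 106 (7.55%), beside 9.6% of all genes tested. Their log2 fold changes lay between -0.33 (*Hdac8*, the cohesin deacetylase) and 0.26 (*Ect2*, an activator of RhoA in cytokinesis), with a median of 0.01, beside -0.02 over all genes tested. The 5 cohesin core genes had a median of -0.08, the 8 condensin genes of -0.10 and the 20 kinase and cyclin genes of 0.08. The DNA replication list had a median of -0.15, and 24 of 27 genes were lower in *Smc3* wt/-, beside 5494 of all 10167 genes, none of them called. Without *Smc3* wt/- replicate 2 that median was -0.06 and 20 of 27 were lower. The 8 genes of the rule had log2 fold changes of -0.35 (*Mki67*, SE 0.24) to 0.26 (*Cenpf*, SE 0.23). Every cell of both genotypes was chosen for these genes, so their values are given as a description only. With the replicate number as a block, described further on, 0 of the 106 had an unadjusted p under 0.05, beside 537 of all genes (5.28%). Of the genes of the rule, the largest log2 fold changes under the block were those of *Mki67* (-0.36), *Cenpf* (0.27), *Ube2c* (0.25) and *Ccnb1* (0.23). No p-value is read for them, since they chose the cells.

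Of all 10167 genes, 1 was called (0.00984%), which was *Tmem121*, a gene of a membrane protein. It was at 17.6, 18.9 and 17.9 CPM in *Smc3* wt/wt and at 47.7, 38.2 and 41.8 CPM in *Smc3* wt/- (CPM scaled by TMM), with a log2 fold change of 1.28 (SE 0.15, adjusted p = 0.0179). All 3 *Smc3* wt/- libraries were above all 3 *Smc3* wt/wt libraries. The value of replicate 2 rests on 7 UMIs. Across all other fits the fold change was 1.18 to 1.36, but the call was lost with DESeq2 (adjusted p = 0.0538), with sex as a covariate (adjusted p = 0.318), without *Smc3* wt/wt replicate 2 (adjusted p = 0.0562) and without *Smc3* wt/- replicate 2 or 3 (adjusted p = 0.0762 and 0.101). In the other B-rule cells *Tmem121* was at 40.0, 27.3 and 23.9 CPM in *Smc3* wt/wt and at 76.0, 23.8 and 61.9 CPM in *Smc3* wt/-, so there replicate 2 lay just below the lowest *Smc3* wt/wt library.

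At an unadjusted p under 0.05 there were 284 genes, and 976 genes (9.6%) had groups that did not overlap, or 1900 (18.7%) without *Smc3* wt/- replicate 2. The genes named next are those of lowest unadjusted p among genes with groups that did not overlap, and none of them was called. *Dusp5*, a phosphatase that inactivates ERK, was at 12.2, 13.8 and 14.9 CPM in *Smc3* wt/wt and at 6.94, 0 and 5.65 CPM in *Smc3* wt/- (log2 fold change -1.21, SE 0.21, adjusted p = 0.264 by edgeR). *Ms4a6c* was at 10.6 to 11.6 CPM and at 5.32, 0 and 4.48 CPM (-1.23, SE 0.21). *Rgcc*, a regulator of the cell cycle, was at 195, 156 and 176 CPM and at 118, 109 and 110 CPM (-0.63, SE 0.13). *Cpm* and *Gstt1* had log2 fold changes of -0.90 and -1.50. In the 35 cells of *Smc3* wt/- replicate 2 *Dusp5*, *Ms4a6c* and *Gstt1* had no UMI, which allows up to 3 of its 187704 UMIs. Higher in *Smc3* wt/- were *Rgs18*, a regulator of G protein signalling (6.39, 6.44 and 5.20 against 17.3, 21.8 and 11.3 CPM), *Lgals9* (galectin-9, log2 fold change 1.17), the scavenger receptor *Cd36* (1.12) and *Rasgrp2*, an activator of Rap (60.7, 64.1 and 59.5 against 84.8, 87.2 and 79.6 CPM, 0.43, SE 0.12).

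**Figure D5:**
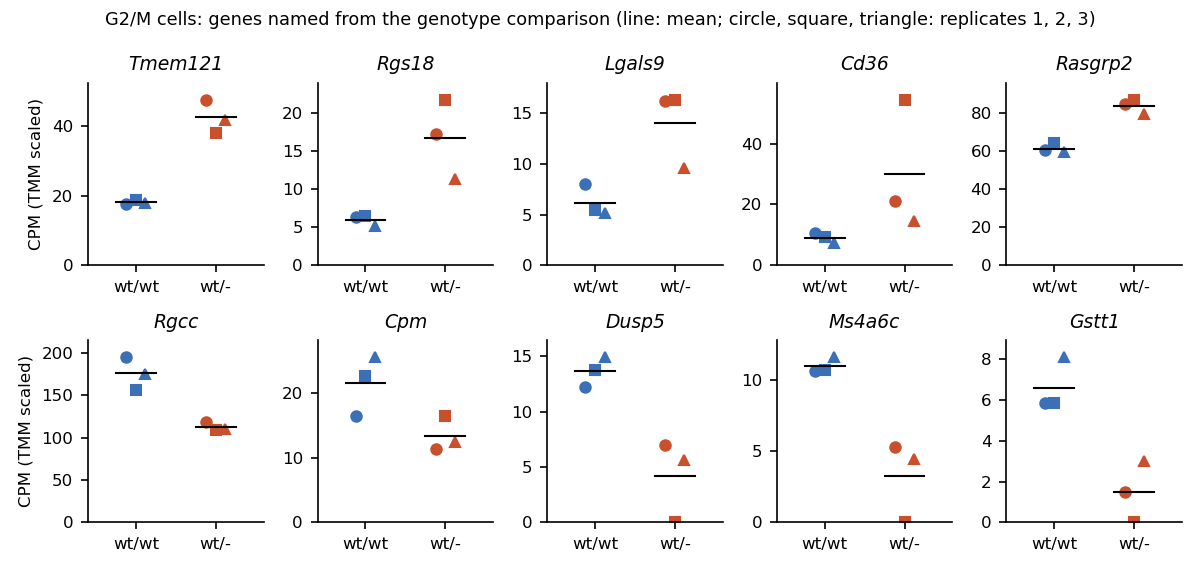
CPM (TMM scaled) in G2/M cells of the 10 genes named by the rule for the genotype comparison, 1 point per library, with a line at the mean of each group. The groups do not overlap in any panel, since this was a condition for naming a gene, and *Tmem121* at 17.6 to 18.9 against 38.2 to 47.7 CPM is the one that was called.

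Same-numbered libraries of the 2 genotypes deviated weakly together from their group means (correlations of 0.106 to 0.225). With the replicate number as a block 48 genes (0.472%) were called, 20 higher and 28 lower in *Smc3* wt/-. In data simulated without any change this fit made more false calls than the fit without the block, so a large part of the 48 may be false. None of the 48 was among the 106 genes of mitosis, cohesin or condensin or the 8 genes of the rule, a count near the 0.472% of all genes. The histone gene *Hist1h2ap* (-0.67, adjusted p = 0.0154) and the apoptosis gene *Mcl1* (-0.49, adjusted p = 0.0415) were among them. *Tmem121* (log2 fold change 1.27) and *Dusp5* (-1.26, adjusted p = 0.00181), *Rgcc* (-0.68, adjusted p = 7.29e-04), *Rgs18* (1.26, adjusted p = 0.00254), *Cd36*, *Ms4a6c*, *Cpm* and *Gstt1* were among them, and *Lgals9* and *Rasgrp2* were not, but were called under the block without *Smc3* wt/- replicate 2 (adjusted p = 0.0220 and 0.0225). The 48 also held 4 sex-linked genes, 3 haemoglobin genes and 4 immunoglobulin genes. Of the rest, named after their values were seen, the MHC class I heavy chain *H2-D1* (0.43), its light chain *B2m* (0.52) and the interferon-induced *Ifi27* (1.18) were higher, and the inhibitory Fc receptor *Fcgr2b* (-0.60) was lower. *B2m* was not called without *Smc3* wt/- replicate 2, and the groups overlapped for *B2m* and for *Ifi27*, which was at 19.2, 31.6 and 37.7 CPM against 91.1, 32.7 and 68.0 CPM. They also overlapped for *Hist1h2ap*, at 456, 429 and 258 CPM against 160, 436 and 204 CPM. *Hist1h2ap* was called in 2 of 18 fits, the block with and without *Smc3* wt/- replicate 2. The fit with both the block and sex made 21 calls. In it the libraries of replicate 1, which differ in sex, give no genotype contrast, so its values rest on replicates 2 and 3. *Tmem121*, *Dusp5* and *Cd36* were still called (adjusted p = 0.0187, 0.0111 and 0.00652 by edgeR). In *Smc3* wt/- replicate 2 these genes had 7, 0 and 10 UMIs, so their values lean on replicate 3. Sex as a covariate without the block gave no call. *Ms4a6c*, *Cpm*, *Rgs18*, *Rgcc* and *Gstt1* were not called with the block and sex (adjusted p = 0.0867 to 0.425). Their log2 fold changes were -1.44, -0.99, 1.22, -0.63 and -1.46, which are near those under the block alone. *Tedc1*, which the block also called, was at -0.86 under the block and -0.87 with sex added (adjusted p = 0.51). Under the block alone, leaving out *Smc3* wt/- replicate 2 gave 93 calls, of which 46 were among the 48. In that fit *Smc3* wt/wt replicate 2 has no partner, so the genotype values of the fit rest on replicates 1 and 3. The libraries of replicate 1 differ in sex.

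Some of these genes lie close together in the genome (GENCODE M21, GRCm38), and their neighbours were looked up after the values were seen. *Dusp5* (chr19:53529109-53542431, plus strand) ends 57967 bases before *Smc3* (chr19:53600398-53645833, plus strand). Of the 7 other genes tested within 250 kb of *Smc3*, *Dusp5* was lower and *Pdcd4*, at 5.85, 7.43 and 5.93 against 10.3, 21.8 and 10.5 CPM, was higher without overlap of the groups, and the other 5 overlapped. Over all genes tested 9.6% had groups without overlap, and over those on chromosome 19 10.9%, and *Dusp5* had been named for this property. *Tmem121* (chr12:113185930-113189523, plus strand) lies next to the constant genes of the antibody heavy chain. Its neighbour *Crip1* (chr12:113146316-113153879), which encodes a LIM domain protein, was at 1573, 1918 and 1787 CPM against 2664, 2813 and 2677 CPM (log2 fold change 0.63, SE 0.18, adjusted p = 0.9999, and 9.92e-07 under the block). *Tedc1* (chr12:113156421-113166048), a tubulin complex gene, was at 38.3, 27.0 and 30.6 CPM against 21.7, 16.4 and 16.5 CPM (-0.72, SE 0.19). *Ighg1* (chr12:113325240-113330523), where *Cγ1*-Cre is placed in both groups, was at 651, 591 and 486 CPM against 270, 174 and 450 CPM (-0.86, SE 0.25). Of the 15 other genes tested within 250 kb of *Tmem121*, 5 had groups that did not overlap, beside 9.6% of all genes, and *Mta1* and *Brf1* were among those that did. The windows around *Smc3* and *Tmem121* were set after the values were seen.

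Antibody class was read from the heavy chain constant gene with the most UMIs in a cell (at least 3 UMIs and no tie). *Ighm* led in 59.0%, 58.5% and 58.5% of the G2/M cells so assigned in *Smc3* wt/wt and in 68.0%, 40.0% and 64.1% of those in *Smc3* wt/-. *Ighg2b* led in 17.9%, 8.47% and 10.9% against 6.86%, 0% and 4.46%, so the groups did not overlap (exact two-sided permutation p = 0.1, the smallest possible, and 0.4 when adjusted over 8 classes). Without *Smc3* wt/- replicate 2 the exact p was 0.2, the smallest possible, and 0.533 when adjusted. In that library *Igha* led in most cells, and by CPM *Ighg2b* overlapped between the groups, at 362, 247 and 328 CPM against 210, 387 and 119 CPM. Under the block *Ighg2b*, *Ighg1* and *Ighg2c* were called as lower in *Smc3* wt/- (log2 fold changes -0.72, -0.90 and -2.36, adjusted p = 0.0296, 2.92e-04 and 1.52e-06 by edgeR). They were also called under the block without *Smc3* wt/- replicate 2, a fit that rests on replicates 1 and 3, at -1.14, -0.67 and -2.47. With sex added to the block *Ighg2b* was not called (-0.59, adjusted p = 0.333 by edgeR), and *Ighg1* and *Ighg2c* were. Of 208 *Ighg2c* UMIs in *Smc3* wt/wt replicate 3, 114 lay in 1 of 1477 G2/M cells, and *Smc3* wt/- replicate 2 had 2 UMIs. The *Ighg2c* calls were not tested without that cell. *Ighg1* led in 13.5%, 23.4% and 18.2% against 10.9%, 0% and 19.98% (exact two-sided permutation p = 0.3). *Igha* led in 21 of the 35 G2/M cells of *Smc3* wt/- replicate 2 and in 0% to 0.797% elsewhere. *Igha* was as high in the other B-rule cells of that library, at 4306 CPM, and whether free RNA gave these UMIs was not tested. *Ighg2b* and *Ighg2c* are related genes, and how reads were divided between them was not tested.

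Lists of other pathways held no gene that was called without the block. At 0.00984% of calls over all genes, such counts of 0 are no result about these lists. None of the 17 damage and repair genes, 10 p53 target genes, 10 apoptosis genes or 8 plasma cell genes tested was called, and their median log2 fold changes were -0.13, 0.05, 0.04 and -0.04. *Mcl1*, an anti-apoptotic gene of the Bcl2 family that was called under the block, was at 104, 79.5 and 89.6 CPM in *Smc3* wt/wt and at 64.6, 49.1 and 71.8 CPM in *Smc3* wt/- (TMM scaled). *H2afx*, the histone variant that is phosphorylated at DNA breaks, was among the higher genes of G2/M cells, at 1015 against 225 CPM, and did not differ by genotype beyond the spread (log2 fold change 0.13). Of the tumor suppressors and other genes that the study singles out, *Tet2*, *Dusp4*, *Prdm1* and *Irf4* were under 7 CPM on average in G2/M cells, and *Kmt2d*, *Btk* and *Cdk6* averaged 14.3, 94.2 and 30.4 CPM. *Irak1*, a kinase of Toll-like receptor signalling, was at 43.6, 21.2 and 25.2 CPM in *Smc3* wt/wt and at 19.2, 5.45 and 19.99 CPM in *Smc3* wt/- (TMM scaled), without overlap of the groups. None of these 8 genes was called with or without the block, and *Irak1* was called under the block without *Smc3* wt/- replicate 2 (log2 fold change -0.65, adjusted p = 0.00626 by edgeR, against 0.0565 with it). A published signature of centrocytes with *Smc3* haploinsufficiency was also looked up. It had 27 genes tested here, and 18 of them were higher in *Smc3* wt/-, beside 4673 of all 10167 genes, with a median of 0.19. The direction in which its genes are meant to change was not settled from the sources used here, so these counts are not read against it. None was called without the block, and *Lgals1* (galectin-1) was called under it (log2 fold change 0.49, adjusted p = 0.0429). The signature holds *Ube2c*, *Ccnb2* and *Cdc20*, which are genes of the rule.

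The third comparison asked whether the genotype difference in G2/M cells departs from that in the other B-rule cells, in a joint fit with the library as a block. Of 10188 genes, 3 (0.0294%) were called, and all were haemoglobin genes (*Hba-a1*, *Hba-a2* and *Hbb-bs*). All 3 were also called without *Smc3* wt/- replicate 2. In the G2/M cells of *Smc3* wt/wt replicate 2 and *Smc3* wt/- replicate 3, single cells held most *Hba-a1* and most *Hbb-bs* UMIs. Without *Smc3* wt/wt replicate 2 no gene was called. For *Tmem121* the difference of differences was -0.02 and for *Smc3* 0.01, both with an adjusted p of 0.9998 by edgeR.

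The conditions of the rule left out cells that were also in G2/M. Of 8748 cells that passed and held at least 4 of the 8 genes, 1539 had at least 2 *Ly6d* UMIs and 1110 had a *Myc* UMI. *Myc* marks GC B-cells that have received help and will divide again. The *Myc* cells held 474 ± 46.9 CPM of *Top2a* (SD, n = 5 libraries) and 224 ± 48.3 CPM of *Cd83*, against 626 and 103 CPM in the G2/M cells of the same 5 libraries. The cells left out by *Ly6d* held 585 ± 81.2 CPM of *Top2a* and 29.3 ± 9.82 CPM of *Ighd*, against 9.91 CPM of *Ighd* in the G2/M cells. *Smc3* was at 179 ± 12.2 CPM in the *Myc* cells and at 168 ± 14.7 CPM in those left out by *Ly6d*, near the 175 CPM of the G2/M cells.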

How the data were processed

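Droplet based 3′ single cell RNA-seq was made by the authors from sorted splenic GC B-cells (10x Genomics). The deposited matrices hold UMI counts, 1 matrix per library, made with Cell Ranger (3.0.2 per the file headers) on mm10, and per the labels' processing notes R 4.0.2 and Seurat 4.0.0 were used afterwards. The annotation version and any filter on barcodes before deposit are not given in the sources used here. Libraries held 5223325 to 35354257 UMIs. Further wild type libraries that the study integrated were not analysed here.

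The members, gene lists and tests were chosen with earlier results of these data known. Immunoglobulin UMIs were those of symbols that start with Igh, Igk or Igl, and Jchain. UMIs were summed per library over G2/M cells (187704 to 14969565 UMIs) and over the other B-rule cells. Genotypes were compared with edgeR's quasi-likelihood test (edgeR 4.0.16, R 4.3.3, TMM, filterByExpr, Benjamini-Hochberg at 0.05), and shares with exact two-sided permutation tests. CPM in the genotype comparison is scaled by TMM, and elsewhere it is relative to all UMIs of the summed cells. Differences between G2/M cells and other B-rule cells are on the log2(CPM + 10) scale, which understates those of low genes. Named genes were the genes of the rule, the cohesin and condensin genes, 25 highest and 10 lowest genes against other B-rule cells (immunoglobulin, mitochondrial and ribosomal protein genes left out), the 5 genes per direction of lowest unadjusted p without overlap of the groups, and up to 4 genes of highest CPM in every other list. Genes named outside this rule served as markers or as members of those lists, or were named after their values were seen (*Crip1*, *Tedc1*, *Pdcd4*, *H2-D1*, *B2m*, *Fcgr2b*, *Ifi27*, *Hist1h2ap*, *Mcl1*, *Lgals1*, *Ighg1*, *Ighg2b*, *Ighg2c*, *Igha* and the haemoglobin genes among them). Doublets were marked with Scrublet (scanpy 1.11.5). Intervals are exact binomial and cover counting error only. The scripts were tested on simulated data, where the fit with a replicate block made more false calls than the fit without it.

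Replicate numbers come from the sample titles. Same-numbered libraries of the genotypes deviated weakly together (correlation of their deviations from the group means 0.225, 0.106 and 0.132 for replicates 1, 2 and 3). Libraries of unlike number had correlations of -0.253 to 0.0773. What the numbers stand for is not stated, so the block is reported beside the counts it changes. Alternatives were DESeq2 1.42.0, other size factors, no filter on low counts, sex as a covariate, other limits of the rule, doublets removed, thinning to 2000 UMIs and leaving out each library. The block with sex, the block without *Smc3* wt/- replicate 2 and the S phase share were added after seeing the data. Gene positions are from GENCODE M21, in which 30934 of 31053 features were found, and promoters from RefSeq (GRCm38.p6), in which 7921 of 10167 tested genes were found by symbol.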

Additional observations from a re-analysis of the deposited data

Results flagged for a closer look

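A difference between the genotypes that itself differed between G2/M cells and other B-rule cells was called by edgeR's quasi-likelihood test for 3 genes, all of haemoglobin. Single G2/M cells held most *Hba-a1* and *Hbb-bs* UMIs in some libraries. In *Smc3* wt/wt replicate 2, 1 cell held 1321 of 1459 *Hba-a1* UMIs and 1 cell held 2631 of 3434 *Hbb-bs* UMIs. In *Smc3* wt/- replicate 3 the values were 844 of 949 and 2037 of 2560. The log2 difference of differences was -5.08 for *Hba-a2* (adjusted p = 4.68e-05), -4.60 for *Hba-a1* (adjusted p = 1.67e-04) and -3.83 for *Hbb-bs* (adjusted p = 0.0221). In G2/M cells *Hba-a1* was at 2.81, 99.9 and 4.58 CPM in *Smc3* wt/wt and at 0.157, 21.3 and 63.4 CPM in *Smc3* wt/-. In the other B-rule cells it was at 3.16, 15.5 and 10.98 CPM in *Smc3* wt/wt and at 0, 7841 and 220 CPM in *Smc3* wt/-. Without *Smc3* wt/- replicate 2 the values were -4.18, -3.71 and -2.57, all called, and without *Smc3* wt/wt replicate 2 they were -2.45, -1.91 and -2.63, with an adjusted p of 1 for each.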

How the results depend on the processing

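The difference in the G2/M share kept its sign under 7 other limits, filters or denominators (-9.12 to -2.68 percentage points). Leaving out single libraries gave -12.5 to 2.59, and the sign turned without *Smc3* wt/- replicate 2. For genes called in G2/M cells, the count of 1 became 0 with DESeq2 (52 genes at an unadjusted p under 0.05) or with sex as a covariate (163), and 15 without the filter on low counts. With the replicate block it became 48, with the replicate block and sex 21, and with the replicate block without *Smc3* wt/- replicate 2 93. Leaving out single libraries gave 0 to 6, with 0 without *Smc3* wt/wt replicate 2 or *Smc3* wt/- replicate 2 or 3, 2 without *Smc3* wt/wt replicate 1 and 6 without *Smc3* wt/wt replicate 3. The count of the joint fit was 0 to 6 when libraries were left out, 0 without *Smc3* wt/wt replicate 2 and 6 without *Smc3* wt/- replicate 3, and 2 to 4 under the other settings. The cause of these shifts was not tested.

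Of 25 genes followed under 17 alternatives, 20 never changed sign. *Smc3* was -0.23 to 0.0464 when libraries were left out, and 0.0720 under the replicate block without *Smc3* wt/- replicate 2. *Smc1a* was 0.00145 under the replicate block, 0.0388 with sex added to it, and -0.16 to 0.15 when libraries were left out. *Stag1* was 0.0690 under the replicate block, 0.0922 without *Smc3* wt/- replicate 2 under it, 0.0702 with sex added, and -0.37 to 0.15 when libraries were left out. *Rad21* was -0.21 to 0.0101 and *Top2a* -0.21 to 0.0517 when libraries were left out. The 35 cells and 187704 UMIs of *Smc3* wt/- replicate 2 limit all values for genes of low level in that library.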
